A study of Mus musculus with 15 samples.

Results

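The genes described here are 8 of the 78298 genes listed in each count file: Ppara, Cpt1a, Cpt2, Acadm, Ehhadh, Pdk4, Plin2 and Angptl4, found by their gene symbol. Together they carry fatty acids into mitochondria and peroxisomes, break them down, store them or regulate these steps. The group was named for fatty acid oxidation and ketogenesis, but none of the 8 encodes an enzyme that makes ketone bodies. Genes of ketone body synthesis and use were therefore read as one of the other pathway lists. All 8 passed the low-count filter, which kept 17560 genes.

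The RNA-seq libraries (poly-A) came from organoids of the mouse small intestine, which are epithelial cultures grown in Matrigel from crypts of female mice 8 to 16 weeks old. Each of 5 conditions had 3 libraries, called biological replicates by the study, and organoids were harvested 5 days after seeding. All lines were wild type with lentiviral transgenes driven by the L30 promoter. The control, Halo-NLS, expressed a nuclear HaloTag without SOX9. SOX9-mEGFP_budding and SOX9-Halo_budding overexpressed SOX9, a transcription factor of the crypt, fused to mEGFP or to HaloTag, and kept the budded shape of normal organoids. SOX9-mEGFP_spheroid and SOX9-Halo_spheroid were later passages of these lines that had become round, and each also carried a fluorescent histone H2B. The lines were made by transducing dissociated cells and selecting with antibiotics, and material from 6 wells was pooled for each sample. Passage, the histone reporter and shape cannot be told apart in a comparison of spheroid with budding organoids. Comparisons with Halo-NLS also differ in line and passage, and those of spheroids in the histone reporter as well. The SOX9-Halo and SOX9-mEGFP lines differ in tag, transduced line, passage and, as spheroids, in the fluorescent protein on the histone. These cannot be told apart either.

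Long-chain fatty acids enter mitochondria as carnitine esters and are then shortened by beta-oxidation, while peroxisomes shorten chains by a parallel route. PPARA is a nuclear receptor that binds fatty acids and, paired with RXR, raises transcription of many genes of both routes. In the small intestine these genes are most active in enterocytes of the villus, the absorptive cells that take up dietary fat.

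The 8 genes lie on 7 chromosomes of GRCm39, the build of the count files, in the GENCODE M39 annotation. Ppara (ENSMUSG00000022383) is on the plus strand at chr15:85618656-85687067, and Cpt1a (ENSMUSG00000024900) on the plus strand at chr19:3371853-3437996. On the minus strand lie Cpt2 (ENSMUSG00000028607) at chr4:107751473-107780812, Plin2 (ENSMUSG00000028494) at chr4:86565912-86588459, Acadm (ENSMUSG00000062908) at chr3:153627989-153650317, Ehhadh (ENSMUSG00000022853) at chr16:21580036-21606563, Pdk4 (ENSMUSG00000019577) at chr6:5483097-5496339 and Angptl4 (ENSMUSG00000002289) at chr17:33992724-34000804. Exons of Ppara, Cpt1a and Cpt2 overlap exons of Cdpf1, Gm58963 and Czib on the opposite strand. The authors counted without strand and left out reads that fit more than 1 gene, so reads from these shared stretches were not counted for either gene.

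RefSeq promoter windows, 250 bases before to 50 after the annotated start on GRCm38.p6, were found for 7 of the 8 genes, all but Angptl4. They were searched on both strands for AGGTCA, the half-site that nuclear receptors such as PPARA bind. Cpt1a, Acadm and Plin2 held it, and 16.3% of all 32851 windows of this length did. The repeat of AGGTCA with 1 base between, bound by PPAR and RXR together, was in none of the 7 and in 0.0396% of all windows. A looser form of that repeat was in none of the 7 and in 0.381% of windows, and the SOX motif AACAAT in none of the 7 and in 10.7%. The 250 bases before the start are shown for the 3 genes with a half-site, in capitals, and for Ehhadh, which has none and whose level fell in both spheroid lines. The half-site lies on the opposite strand in all 3, so it reads TGACCT, and starts 94, 249 and 218 bases before the start in Cpt1a, Acadm and Plin2. The windows are chr19:3323051-3323300 on the plus strand and chr3:153944644-153944893, chr4:86670060-86670309 and chr16:21787835-21788084 on the minus strand of GRCm38.p6.
Cpt1a: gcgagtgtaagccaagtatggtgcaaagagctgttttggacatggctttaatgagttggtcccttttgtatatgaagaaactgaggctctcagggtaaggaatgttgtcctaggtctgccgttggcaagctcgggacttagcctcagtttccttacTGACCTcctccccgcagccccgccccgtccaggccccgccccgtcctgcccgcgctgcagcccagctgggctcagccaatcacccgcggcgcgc
Acadm: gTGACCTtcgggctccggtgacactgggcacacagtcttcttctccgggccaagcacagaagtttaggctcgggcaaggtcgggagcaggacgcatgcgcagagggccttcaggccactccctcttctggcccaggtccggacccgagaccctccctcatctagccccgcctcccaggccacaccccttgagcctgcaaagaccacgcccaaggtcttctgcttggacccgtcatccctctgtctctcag
Plin2: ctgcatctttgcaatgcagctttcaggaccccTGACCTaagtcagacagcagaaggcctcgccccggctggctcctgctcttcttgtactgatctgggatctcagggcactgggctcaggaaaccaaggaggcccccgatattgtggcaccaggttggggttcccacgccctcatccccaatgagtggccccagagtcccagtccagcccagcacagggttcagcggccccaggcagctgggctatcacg
Ehhadh: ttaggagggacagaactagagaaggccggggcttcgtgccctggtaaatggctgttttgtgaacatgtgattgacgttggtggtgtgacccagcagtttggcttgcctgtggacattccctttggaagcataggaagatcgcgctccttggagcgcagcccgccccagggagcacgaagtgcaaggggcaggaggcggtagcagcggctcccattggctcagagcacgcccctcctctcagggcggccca
A match describes letters and is not a bound site, and sites elsewhere in a gene were not searched.

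Libraries held 28062722 to 40559766 counts on genes. Sox9 reads, which can come from the transgene or the native gene, were at 9.10 to 22.9 CPM (counts relative to library size, scaled by the trimmed mean of M values, TMM) in Halo-NLS and at 193 to 705 CPM in all SOX9 libraries but one. SOX9-Halo_budding replicate 1 had 39.8 CPM, still above all of Halo-NLS. Without this library the same number of the 8 genes, 4, was called lower between SOX9-Halo_budding and SOX9-Halo_spheroid. Over all genes, those called lower there went from 2584 to 2297. In the difference between the lines described below, the number of the 8 called fell from 3 to 1. Over all genes, calls in that difference went from 318 higher and 979 lower to 199 and 810. The 6 epithelial markers were above 1 CPM on average in every condition, and summed to 5102 to 11526 CPM, while the 4 adipocyte and 5 fibroblast markers each averaged under 1 CPM in every condition. The organoids were therefore epithelial by these markers. The 9 enterocyte markers summed to 13304 to 24726 CPM in Halo-NLS, 4233 to 17159 in SOX9-mEGFP_budding, 8564 to 19159 in SOX9-Halo_budding, 400.3 to 1133 in SOX9-mEGFP_spheroid and 4.76 to 14.3 in SOX9-Halo_spheroid. The 4 fetal-like markers ran the other way, from 8.88 to 21.7 CPM in Halo-NLS to 4900 to 5691 in SOX9-mEGFP_spheroid and 3285 to 3837 in SOX9-Halo_spheroid. Paneth markers were at 652 CPM or more in every condition but SOX9-Halo_spheroid, which had 3.17 to 5.86, and goblet markers at 1519.6 or more, against 16.3 to 22.4 there. The Paneth sum of SOX9-mEGFP_spheroid came mostly from Mmp7 (1246 CPM on average), which was called higher than in Halo-NLS, while the other 3 Paneth markers were called lower. Enteroendocrine markers fell from 295 to 933 CPM in Halo-NLS to 0.454 to 2.25 in SOX9-mEGFP_spheroid and 0.197 to 0.429 in SOX9-Halo_spheroid, with 4 of 4 called lower in both. Stem cell markers summed to 147 to 429 CPM in Halo-NLS, 46.2 to 76.7 in SOX9-mEGFP_spheroid (1 of 4 called lower and 1 higher) and 20.5 to 31.0 in SOX9-Halo_spheroid (2 of 4 called lower). The 4 hepatocyte markers summed to 22.1 to 52.4 CPM outside SOX9-Halo_spheroid and to 1.26 to 2.79 in it. The 4 immune markers summed to 8.08 CPM or less, and the 3 endothelial markers each averaged under 1 CPM. The enterocyte, enteroendocrine, stem cell and fetal-like sums moved with the comparisons of spheroids with Halo-NLS, and the part of any marker list in the results was not tested. In RNA from whole organoids, fewer cells of one type and less RNA per cell cannot be told apart.

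Spheroids held less mRNA of this group than Halo-NLS, and the genes called differed in part between the lines. In SOX9-mEGFP_spheroid, Ehhadh, Cpt1a, Plin2 and Cpt2 were lower, and in SOX9-Halo_spheroid, Angptl4, Pdk4, Ppara, Ehhadh and Cpt2 were lower. Ehhadh and Cpt2 were in both sets. Calls needed a fold of 2 or more, an adjusted p no higher than 0.01 (edgeR quasi-likelihood, Benjamini-Hochberg) and 10 or more normalized counts on average. By these limits 4 of 8 were lower and 0 higher in SOX9-mEGFP_spheroid, where 12.1% of all genes tested were called lower and 15.3% higher. The counts were 5 lower and 0 higher in SOX9-Halo_spheroid, where 15.3% of genes were called lower and 13.6% higher. The median log2 fold change of the 8 was -1.21 and -2.39, beside 0.030 and -0.011 over all genes tested. With Pdk4 set to 3 counts a library in SOX9-Halo_spheroid, the second was -2.17.

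**Figure D1:**
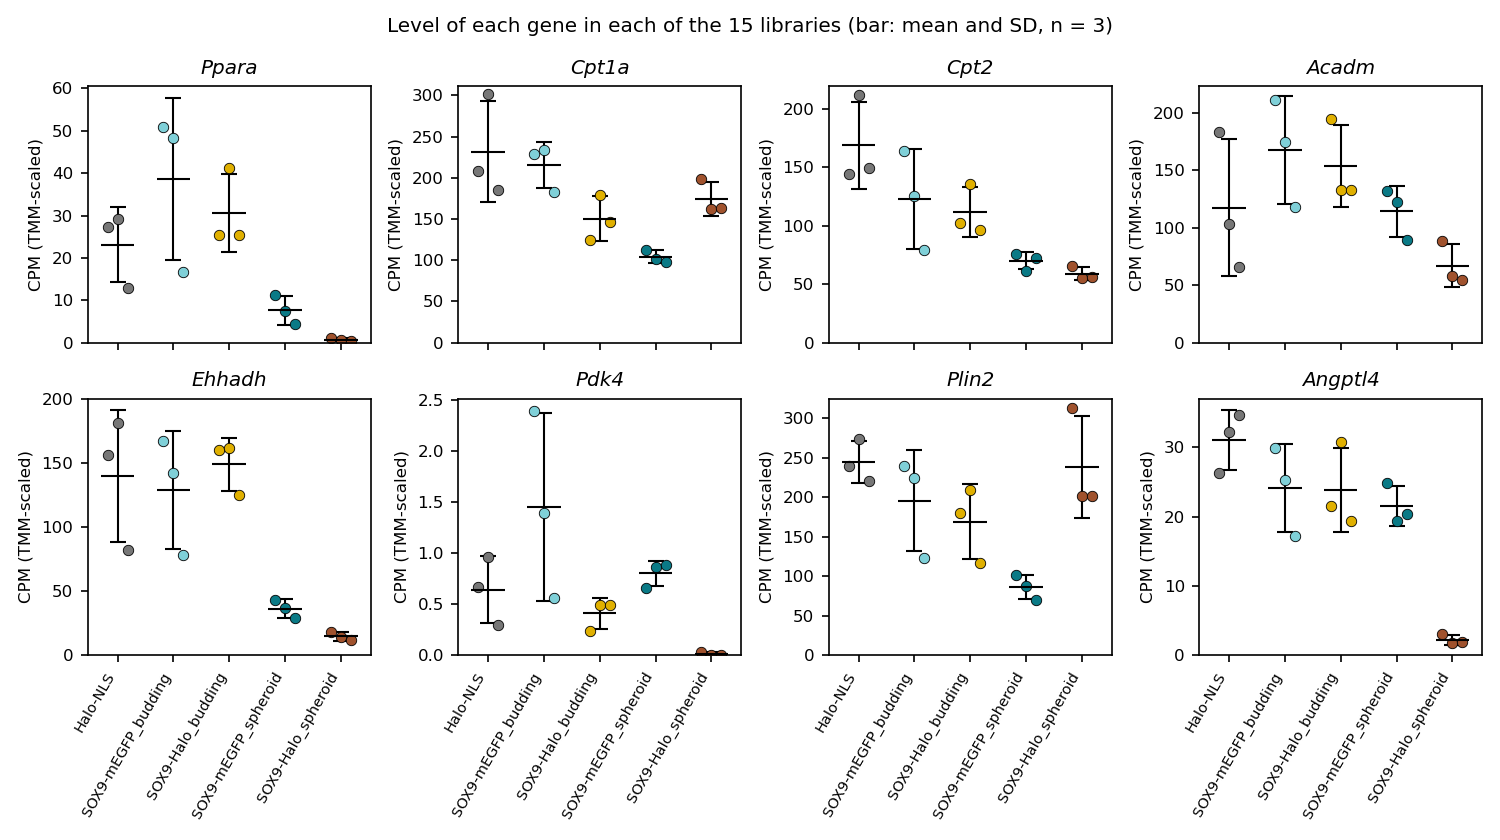
Level of each of the 8 genes (y axis, CPM, from 0) in the 3 libraries of each condition (x axis); points are libraries, bars the mean and SD. Ppara, Ehhadh, Pdk4 and Angptl4 come close to the axis in SOX9-Halo_spheroid, while Plin2 there reaches 201.1 to 313 CPM and is lowest in SOX9-mEGFP_spheroid.

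Ppara encodes the receptor itself. Its level was 27.3, 29.1 and 12.9 CPM in the Halo-NLS libraries, 51.0, 48.2 and 16.6 in SOX9-mEGFP_budding and 25.3, 41.2 and 25.3 in SOX9-Halo_budding. It was 11.2, 7.43 and 4.29 CPM in SOX9-mEGFP_spheroid and 1.06, 0.536 and 0.349 in SOX9-Halo_spheroid, the latter from 13 to 30 counts a library. The 3 conditions with buds overlapped, SOX9-mEGFP_spheroid lay below all of them, and SOX9-Halo_spheroid lay below everything else. Against Halo-NLS, Ppara fell by 5.18 ± 0.58 (SE) on the log2 scale in SOX9-Halo_spheroid (36.2-fold, adjusted p = 3.71e-06). In SOX9-mEGFP_spheroid the difference was -1.60 ± 0.48 and missed the threshold (adjusted p = 0.0132). It passed without Halo-NLS replicate 3 (-1.89, adjusted p = 0.00797) and by DESeq2 (-1.65, adjusted p = 0.00262). It also passed with a replicate block (-1.61, adjusted p = 6.96e-04). The replicate numbers did not pair these conditions, though (correlations -0.093, -0.311 and -0.069), so the block has no basis here. Against its own budding line Ppara fell by 5.58 ± 0.59 in SOX9-Halo_spheroid (adjusted p = 2.15e-06) and fell by 2.34 ± 0.49 in SOX9-mEGFP_spheroid (adjusted p = 0.00206). The second call was lost without SOX9-mEGFP_budding replicate 1, SOX9-mEGFP_spheroid replicate 2 or SOX9-mEGFP_spheroid replicate 3, with the largest adjusted p at 0.0129. The 741 genes tested on chromosome 15 had a median difference from Halo-NLS of 0.37 in SOX9-mEGFP_budding, 0.36 in SOX9-mEGFP_spheroid, -0.10 in SOX9-Halo_budding and -0.08 in SOX9-Halo_spheroid, and the part of the chromosome in the Ppara values was not tested.

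Cpt1a encodes the outer membrane enzyme that attaches fatty acids to carnitine, the controlled step of their entry into mitochondria. Halo-NLS libraries had 209, 301.1 and 185 CPM, SOX9-mEGFP_budding 229, 234 and 183, and SOX9-Halo_budding 125, 179 and 147. The level was 113, 101 and 98.0 CPM in SOX9-mEGFP_spheroid and 198, 162 and 164 in SOX9-Halo_spheroid. SOX9-mEGFP_spheroid was the lowest condition, with no overlap with any other, and SOX9-Halo_spheroid overlapped its own budding line and Halo-NLS. Cpt1a fell by 1.15 ± 0.21 on the log2 scale from Halo-NLS to SOX9-mEGFP_spheroid (adjusted p = 4.43e-04), a call that was lost without Halo-NLS replicate 2 (-0.91) or with library sizes alone as scaling (-0.89). From SOX9-mEGFP_budding it fell by 1.05 ± 0.21 (adjusted p = 0.00137). In SOX9-Halo_spheroid the differences were -0.41 ± 0.21 from Halo-NLS (adjusted p = 0.118) and 0.22 ± 0.21 from SOX9-Halo_budding (adjusted p = 0.435).

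Chromosome 19, which holds Cpt1a, also shifted as a whole in 3 of the 4 SOX9 conditions. The median of the 656 genes tested on it, against Halo-NLS, was -0.33 in SOX9-mEGFP_budding, -0.62 in SOX9-Halo_budding, -0.79 in SOX9-mEGFP_spheroid and -0.06 in SOX9-Halo_spheroid, while the median of all genes stayed between -0.011 and 0.034. Cpt1a itself differed by -0.11, -0.63, -1.15 and -0.41 in the same order. The chromosome median was -0.43 from SOX9-mEGFP_budding to SOX9-mEGFP_spheroid and 0.46 from SOX9-Halo_budding to SOX9-Halo_spheroid. Other chromosomes moved as well against Halo-NLS. Chromosome 3, with Acadm, had medians of 0.27, 0.30, 0.29 and 0.04 in the same order of conditions. Chromosome 17, with Angptl4, had -0.18, -0.13, -0.21 and -0.27. The part of the chromosomes in the differences of Cpt1a, Acadm and Angptl4 was not tested.

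**Figure D2:**
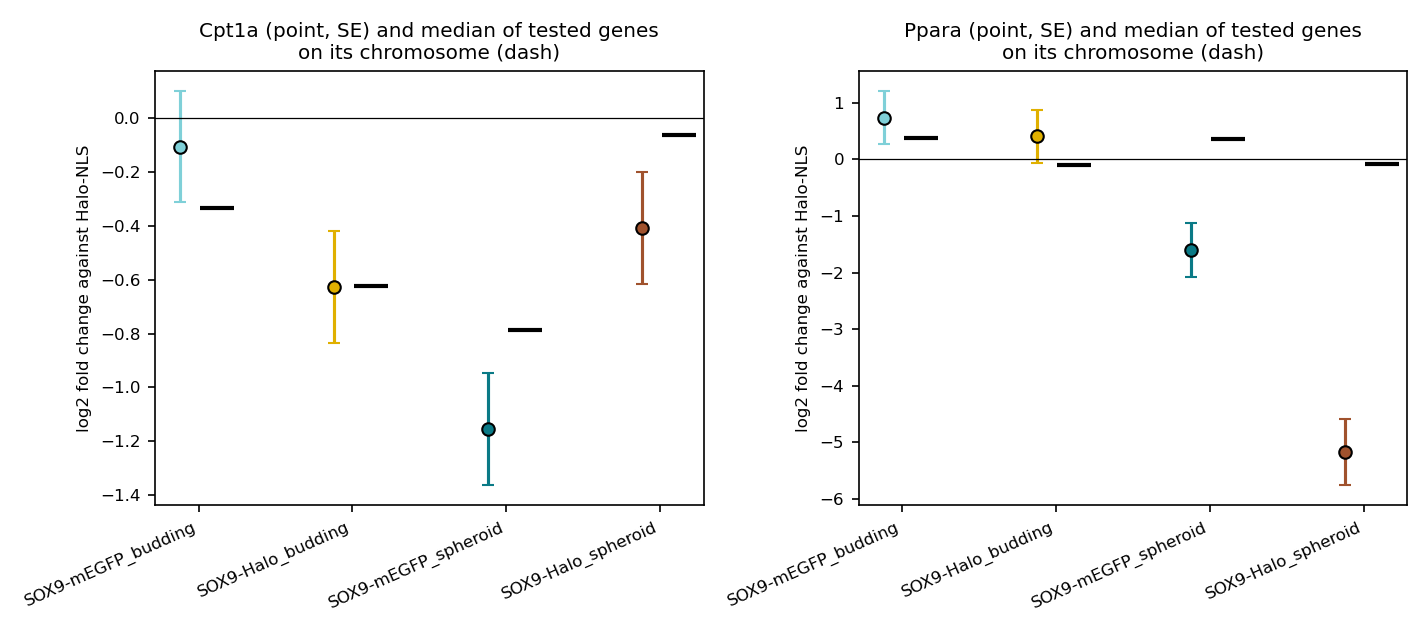
Log2 fold change against Halo-NLS (y axis) of Cpt1a and Ppara (points with SE) and the median of all genes tested on the chromosome of each (dashes), in the 4 SOX9 conditions (x axis). For Cpt1a the gene and the chromosome 19 median are both lowest in SOX9-mEGFP_spheroid (-1.15 and -0.79), while Ppara lies far below the chromosome 15 median in SOX9-Halo_spheroid (-5.18 and -0.08).

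Cpt2 encodes the inner membrane enzyme that takes the carnitine off again inside mitochondria. Its level was 144, 211 and 149.6 CPM in Halo-NLS, 164, 125 and 78.8 in SOX9-mEGFP_budding and 103, 136 and 96.3 in SOX9-Halo_budding. Spheroids had 75.8, 61.6 and 72.5 CPM (SOX9-mEGFP_spheroid) and 65.3, 55.5 and 55.7 CPM (SOX9-Halo_spheroid). All 6 spheroid libraries lay below all 9 others, and the spheroid lines overlapped each other. From Halo-NLS, Cpt2 fell by 1.27 ± 0.25 in SOX9-mEGFP_spheroid (adjusted p = 8.73e-04) and fell by 1.52 ± 0.25 in SOX9-Halo_spheroid (adjusted p = 1.67e-04), and both calls stood with any 1 library left out. From the budding lines the differences were smaller than 2-fold, at -0.81 ± 0.25 (adjusted p = 0.0233) and -0.92 ± 0.25 (adjusted p = 0.00768). Without SOX9-mEGFP_budding replicate 3 the first was -1.10 and passed (adjusted p = 0.00330).

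Acadm encodes medium-chain acyl-CoA dehydrogenase, which opens each round of mitochondrial beta-oxidation for medium chains. Libraries of Halo-NLS had 183, 103 and 66.1 CPM, those of SOX9-mEGFP_budding 212, 174 and 118, and those of SOX9-Halo_budding 195, 133 and 133. The values were 132, 122 and 89.6 CPM in SOX9-mEGFP_spheroid and 88.6, 58.2 and 54.1 in SOX9-Halo_spheroid. The spread within Halo-NLS was wide, and both spheroid lines overlapped it. Acadm was not called in any comparison. The nearest was SOX9-Halo_spheroid against SOX9-Halo_budding, with no overlap, where the difference was -1.20 ± 0.34 (adjusted p = 0.0109). With the replicate number as a block in a fit of only these conditions, which their pairing allows, it was -1.25 and passed (adjusted p = 5.49e-04). It also passed without SOX9-Halo_spheroid replicate 1 (-1.44, adjusted p = 0.00963).

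Ehhadh encodes the peroxisomal bifunctional enzyme, which carries out the middle steps of beta-oxidation there. It had 156, 181 and 82.1 CPM in Halo-NLS, 167, 142 and 78.0 in SOX9-mEGFP_budding and 159.7, 162 and 125 in SOX9-Halo_budding. It had 43.3, 36.8 and 28.8 CPM in SOX9-mEGFP_spheroid and 18.2, 14.0 and 11.8 in SOX9-Halo_spheroid. The 3 groups fell apart without overlap, budded organoids above SOX9-mEGFP_spheroid and that line above SOX9-Halo_spheroid. Ehhadh was the member called lower in all 4 comparisons of spheroids with Halo-NLS or the budding line. From Halo-NLS it fell by 1.94 ± 0.32 (3.85-fold, adjusted p = 2.10e-04) and fell by 3.25 ± 0.34 (9.53-fold, adjusted p = 1.80e-06). From the budding lines it fell by 1.83 ± 0.32 (adjusted p = 4.90e-04) and fell by 3.34 ± 0.34 (adjusted p = 1.51e-06).

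Pdk4 encodes a kinase that shuts off pyruvate dehydrogenase and so spares glucose when fat is burned. It was rare, with 0.662, 0.957 and 0.300 CPM in Halo-NLS, 2.39, 1.39 and 0.557 in SOX9-mEGFP_budding, 0.237, 0.493 and 0.494 in SOX9-Halo_budding and 0.661, 0.865 and 0.880 in SOX9-mEGFP_spheroid. The 3 SOX9-Halo_spheroid libraries held 1, 0 and 0 counts, where 3 counts a library would be 0.0903 CPM. SOX9-Halo_spheroid was below all 12 other libraries, and SOX9-mEGFP_spheroid overlapped Halo-NLS. Halo-NLS had 53 counts in all against that 1, a ratio of 65.6 after scaling (exact 95% interval 11.3 to 2641), and SOX9-Halo_budding had 44, a ratio of 40.0 (6.82 to 1617). These intervals cover counting error only. Pdk4 was called lower in SOX9-Halo_spheroid than in Halo-NLS (adjusted p = 2.13e-04) and than in SOX9-Halo_budding (adjusted p = 9.36e-04). In SOX9-mEGFP_spheroid the difference from Halo-NLS was 0.32 ± 0.54 (adjusted p = 0.642).

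Plin2 encodes the coat protein of cytoplasmic lipid droplets. Its level was 239, 274 and 220.4 CPM in Halo-NLS, 239.8, 225 and 122 in SOX9-mEGFP_budding and 180.5, 209 and 116 in SOX9-Halo_budding. The spheroid lines parted, with 101, 87.5 and 70.1 CPM in SOX9-mEGFP_spheroid and 313, 201.1 and 201.3 in SOX9-Halo_spheroid. SOX9-mEGFP_spheroid lay below every other library, and SOX9-Halo_spheroid overlapped Halo-NLS and both budding lines. Plin2 fell by 1.502 ± 0.29 from Halo-NLS to SOX9-mEGFP_spheroid (adjusted p = 6.74e-04) and fell by 1.18 ± 0.29 from SOX9-mEGFP_budding (adjusted p = 0.00550). The second call was lost without SOX9-mEGFP_budding replicate 1 or 2 or SOX9-mEGFP_spheroid replicate 2 or 3, with adjusted p up to 0.0303. In SOX9-Halo_spheroid the differences were -0.04 ± 0.28 from Halo-NLS (adjusted p = 0.926) and 0.50 ± 0.28 from SOX9-Halo_budding (adjusted p = 0.181).

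Angptl4 encodes a secreted protein that inhibits lipoprotein lipase. It had 26.3, 32.2 and 34.6 CPM in Halo-NLS, 29.9, 25.3 and 17.2 in SOX9-mEGFP_budding and 21.5, 30.7 and 19.4 in SOX9-Halo_budding. It had 24.9, 19.5 and 20.4 CPM in SOX9-mEGFP_spheroid and 3.04, 1.69 and 1.85 in SOX9-Halo_spheroid. SOX9-Halo_spheroid lay far below all other libraries, and SOX9-mEGFP_spheroid lay just below Halo-NLS and overlapped both budding lines. Angptl4 fell by 3.83 ± 0.31 from Halo-NLS (14.2-fold, adjusted p = 1.27e-07) and fell by 3.45 ± 0.30 from SOX9-Halo_budding (adjusted p = 3.36e-07), and both calls stood with any 1 library left out. In SOX9-mEGFP_spheroid the differences were -0.53 ± 0.27 from Halo-NLS (adjusted p = 0.119) and -0.16 ± 0.27 from SOX9-mEGFP_budding (adjusted p = 0.735).

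**Figure D3:**
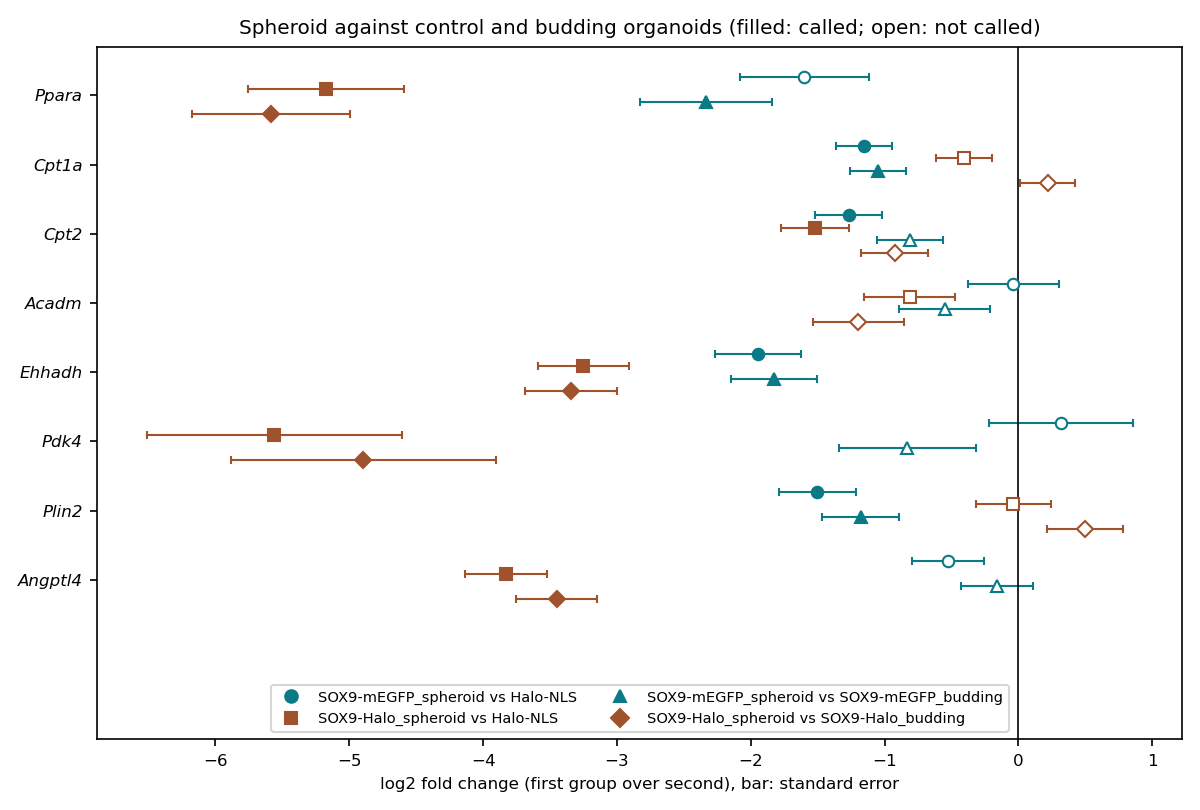
Log2 fold change (x axis, with SE) of each gene (y axis) in the 4 comparisons of spheroids with Halo-NLS or with the budding line; filled symbols were called, open symbols were not. Brown symbols (SOX9-Halo_spheroid) lie far left of turquoise ones (SOX9-mEGFP_spheroid) for Ppara, Ehhadh, Pdk4 and Angptl4 and right of them for Cpt1a and Plin2; the SOX9-Halo_spheroid points of Pdk4 rest on 1 count.

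From budding to spheroid, 4 of 8 genes were lower and 0 higher in each line, where 7.88% of genes were called lower and 8.55% higher in the SOX9-mEGFP line and 14.7% lower and 10.5% higher in the SOX9-Halo line. The median log2 fold change of the 8 was -0.94 in the SOX9-mEGFP line and -2.27 in the SOX9-Halo line, beside -0.040 and -0.076 over all genes. With Pdk4 set to 3 counts a library in SOX9-Halo_spheroid, the second was -1.69. The SOX9-mEGFP line lost Ppara, Ehhadh, Cpt1a and Plin2, and the SOX9-Halo line lost Ppara, Ehhadh, Pdk4 and Angptl4. The comparisons with Halo-NLS share its 3 libraries, and those with a budding line share the spheroid libraries with them, so they are not independent of each other.

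The budding lines were compared with Halo-NLS. By edgeR and by DESeq2, 0 of the 8 genes were called in either budding line. Over all genes, edgeR called 2.76% in SOX9-mEGFP_budding and 3.75% in SOX9-Halo_budding. At these shares, 0 of 8 says little about the group. In SOX9-mEGFP_budding, 0 of 8 lay apart from Halo-NLS without overlap, where 32.5% of genes did. In SOX9-Halo_budding, 3 of 8 lay apart, where 29.7% of genes did in either direction. These were Cpt1a, Cpt2 and Plin2, all below Halo-NLS, where 14.9% of genes lay below. At an unadjusted p under 0.05 there were 1 and 2, namely Pdk4 (1.15 ± 0.53) in SOX9-mEGFP_budding and Cpt1a (-0.63 ± 0.21) and Cpt2 (-0.59 ± 0.25) in SOX9-Halo_budding. The medians of the 8 were -0.11 and -0.46, beside 0.034 and 0.0094 over all genes. Between the budding lines, 0 of 8 were called by edgeR and by DESeq2 (0.456% of all genes by edgeR), and 2 had an unadjusted p under 0.05. These were Pdk4, at -1.81 ± 0.54 (SOX9-Halo_budding minus SOX9-mEGFP_budding), and Cpt1a, at -0.52 ± 0.21. The third replicate of Halo-NLS and of SOX9-mEGFP_budding had the lowest enterocyte sum of its group, 13304 and 4233 CPM. It also had the lowest Ppara, Cpt1a, Acadm, Ehhadh, Pdk4 and Plin2. Cpt2 and Angptl4 were lowest there in SOX9-mEGFP_budding but not in Halo-NLS, where Angptl4 was highest in that replicate. SOX9-Halo_budding replicate 3 had the lowest sum of its group, 8564 CPM, and the lowest Cpt2, Ehhadh, Plin2 and Angptl4. It did not have the lowest Ppara, Cpt1a, Acadm or Pdk4.

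The spheroid lines differed from each other in 5 of the 8 genes by these calls, and in 4 of 8 with any 1 library left out. Against SOX9-mEGFP_spheroid, SOX9-Halo_spheroid was lower in Angptl4, Pdk4, Ppara and Ehhadh and higher in Plin2, so 4 of 8 were lower where 9.58% of genes were and 1 was higher where 3.59% were. The differences were -3.58 ± 0.55 for Ppara (adjusted p = 2.00e-04), -3.30 ± 0.30 for Angptl4 (adjusted p = 1.39e-06) and -1.31 ± 0.32 for Ehhadh (adjusted p = 0.00700). The Ehhadh call was lost in 5 of the 6 cases with 1 library left out, namely without any of the 3 SOX9-Halo_spheroid libraries or SOX9-mEGFP_spheroid replicate 1 or 2 (adjusted p up to 0.0414). For Pdk4, SOX9-mEGFP_spheroid held 85 counts against 1, a ratio of 80.6 (14.1 to 3222, adjusted p = 2.40e-04). Plin2 was higher by 1.46 ± 0.29 (2.76-fold, adjusted p = 0.00146), a call lost without SOX9-mEGFP_spheroid replicate 3 (1.33, adjusted p = 0.0104). Cpt1a was higher without overlap, by 0.75 ± 0.21, and missed the threshold (adjusted p = 0.0162), and chromosome 19 had a median of 0.56. Cpt2 and Acadm differed by -0.25 ± 0.25 and -0.78 ± 0.34 (adjusted p = 0.518 and 0.117).

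The lines were also compared in their step from budding to spheroid, as the difference of the changes, SOX9-Halo minus SOX9-mEGFP. It was called for 2 genes in the lower direction, where 5.58% of genes were, and for 1 in the higher, where 1.81% were. Angptl4 had a difference of -3.29 ± 0.40 (adjusted p = 4.77e-05), Ppara one of -3.25 ± 0.71 (adjusted p = 0.00619) and Cpt1a one of 1.27 ± 0.29 (adjusted p = 0.00880). The Angptl4 call stood with any 1 of the 12 libraries left out. The Ppara call was lost in 9 of these 12 cases, standing only without SOX9-mEGFP_budding replicate 1, SOX9-Halo_spheroid replicate 1 or SOX9-mEGFP_spheroid replicate 3, and its adjusted p reached 0.0224. The Cpt1a call was lost in 10 of the 12, standing only without SOX9-Halo_budding replicate 2 or SOX9-mEGFP_budding replicate 3, with adjusted p up to 0.0331, and the chromosome 19 median of the same difference was 0.88. Plin2 (1.68 ± 0.40, adjusted p = 0.0108), Ehhadh (-1.51 ± 0.44, adjusted p = 0.0354) and Pdk4 (adjusted p = 0.0338) missed the threshold, which Plin2 passed without SOX9-Halo_budding replicate 2 or SOX9-mEGFP_budding replicate 3 (adjusted p = 0.00885 and 0.00273). Cpt2 and Acadm had -0.11 ± 0.35 and -0.64 ± 0.48.

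Levels were also divided by the merged length of all annotated exons of a gene. This was 3.1 kb for Ehhadh, 3.46 for Cpt2, 7.68 for Plin2 and 10.9 for Cpt1a. Ranks and shares between genes depend on this length, which can exceed that of the transcripts present. Per kilobase of exon, the 8 genes summed to 176 ± 37.9 CPM per kb (SD, n = 3) in Halo-NLS, 161 ± 49.5 in SOX9-mEGFP_budding and 150.4 ± 22.2 in SOX9-Halo_budding. The sum was 77.0 ± 10.0 in SOX9-mEGFP_spheroid and 80.0 ± 16.04 in SOX9-Halo_spheroid, and the ranges of the spheroid lines overlapped. In Halo-NLS, Cpt2 made up 28.0% of the sum and Ehhadh 24.97%, followed by Plin2 with 18.4%. SOX9-mEGFP_spheroid was led by Cpt2 with 26.5% and Acadm with 23.5%. In SOX9-Halo_spheroid, Plin2 led with 38.5% ± 2.49, and Ehhadh was at 5.91% ± 0.45.

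**Figure D4:**
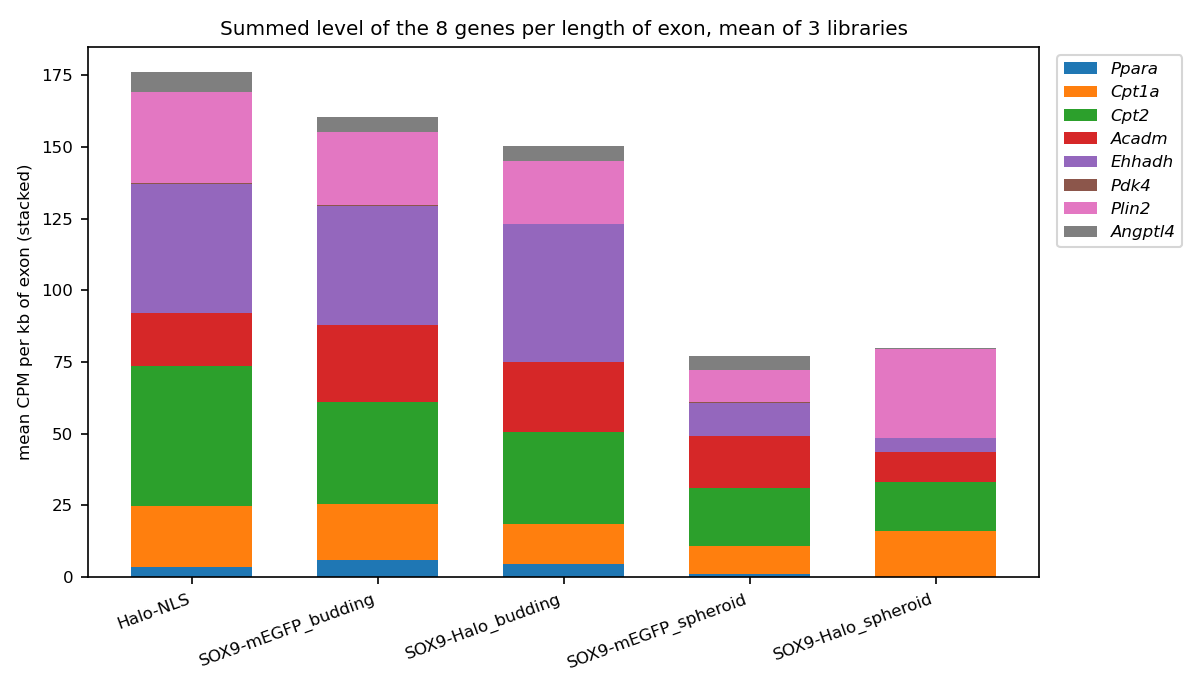
Level of the 8 genes per kilobase of exon (y axis, mean CPM per kb of 3 libraries, stacked) in each condition (x axis). The spheroid bars reach 77.0 and 80.0, against 150.4 or more in the other conditions, and Plin2 is the largest segment in SOX9-Halo_spheroid.

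The other genes of these pathways were read as lists, which were chosen with earlier results of these data known. Against Halo-NLS, 12.1% of all genes tested were called lower and 15.3% higher in SOX9-mEGFP_spheroid. In SOX9-Halo_spheroid these shares were 15.3% and 13.6%. List counts near these shares, such as 1 lower of 12 or of 4 below, say little about a list. Of 15 tested PPAR receptors and partners, 5 were lower and 1 higher in SOX9-mEGFP_spheroid and 4 and 1 in SOX9-Halo_spheroid, always against Halo-NLS, with medians of -0.19 and -0.14. Hnf4a, a nuclear receptor that sets enterocyte gene expression, fell in both lines (-1.36 ± 0.24, adjusted p = 3.67e-04, and -4.61 ± 0.28, adjusted p = 9.16e-09), and its relative Hnf4g and the PPARA partner Creb3l3 were also lower in both, with at most 2 and 11 counts in any library of SOX9-Halo_spheroid. Ppargc1a, a coactivator of oxidative genes, was higher in all SOX9 conditions, at 13.0 to 19.1 CPM on average against 1.31 in Halo-NLS. Ppard and Pparg, the other PPAR receptors, were not called against Halo-NLS (Ppard 1.30 ± 0.40, adjusted p = 0.0137, and Pparg -0.34 ± 0.23 in SOX9-Halo_spheroid). Ppard rose by 2.14 ± 0.41 from SOX9-Halo_budding to SOX9-Halo_spheroid (adjusted p = 5.73e-04). At 0.648 CPM for Ppara against 89.0 for Ppard and 37.4 for Pparg, or 0.0983, 11.8 and 5.36 CPM per kb, Ppara was the least abundant PPAR receptor in SOX9-Halo_spheroid. The differences given for Ppard and Pparg also place Ppara lowest in Halo-NLS, at 23.1 CPM, so this order is not particular to the spheroids.

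Of 21 mitochondrial beta-oxidation genes, 10 were lower and 0 higher in each spheroid line, with medians of -1.09 and -0.97. Hadh, which carries out the third step for short chains, fell (-2.72 ± 0.29 and -3.37 ± 0.30, adjusted p = 3.86e-06 and 3.41e-07), as did Hadha, of the trifunctional protein for long chains (-1.28 ± 0.26 and -1.32 ± 0.26, adjusted p = 0.00112 and 7.59e-04). Acadl, the long-chain dehydrogenase, was not called (-0.25 ± 0.26 and -0.84 ± 0.26). Peroxisomal genes were lower in 5 and higher in 1 of 16 in SOX9-mEGFP_spheroid and lower in 9 and higher in 0 in SOX9-Halo_spheroid, with medians of -0.42 and -1.11. Ech1, an isomerase for unsaturated chains, differed by -0.90 ± 0.31 in SOX9-mEGFP_spheroid and fell by 1.61 ± 0.31 in SOX9-Halo_spheroid (adjusted p = 5.99e-04), and Hsd17b4, a bifunctional enzyme like Ehhadh, was called in neither. Between the spheroid lines, 0 of the 21 mitochondrial genes and 3 of the 16 peroxisomal genes were called, the latter all lower in SOX9-Halo_spheroid. Over all genes, 9.58% were called lower and 3.59% higher there.

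In the carnitine and acyl-CoA list, 5 of 12 were lower and 2 higher in SOX9-mEGFP_spheroid and 4 and 2 in SOX9-Halo_spheroid, with medians of -0.55 and -0.54. Acsl5, an enterocyte acyl-CoA synthetase, and Acsl3 were called in neither, and Mlycd, which removes the CPT1 inhibitor malonyl-CoA, fell by 1.06 ± 0.20 in SOX9-mEGFP_spheroid (adjusted p = 5.76e-04). The genes that were higher in both, named after their values were seen, were Acsl4 and Acacb, which makes malonyl-CoA. Ketone body genes were lower in 3 of 9 in each line and higher in 2 and 1, with medians of 0.011 and -0.29. Bdh1, which forms hydroxybutyrate, fell in both (-2.05 ± 0.19 and -2.22 ± 0.19, adjusted p = 8.38e-07 and 1.99e-07). Oxct1, which lets cells use ketone bodies, rose from 47.4 to 509.7 and 564 CPM, by 3.43 ± 0.33 and 3.57 ± 0.33 (adjusted p = 1.45e-06 and 5.64e-07).

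Among 15 lipid droplet genes, 6 were lower and 1 higher in SOX9-mEGFP_spheroid and 8 and 2 in SOX9-Halo_spheroid, with medians of -0.77 and -2.07. Dgat1, which makes triglyceride, fell (-2.92 ± 0.34 and -4.14 ± 0.36, adjusted p = 8.76e-06 and 2.75e-07), as did Dgat2 (-2.05 ± 0.32 and -2.07 ± 0.32, adjusted p = 1.28e-04 and 8.86e-05). Plin3, the other coat protein with a high level, fell by 1.10 ± 0.24 in SOX9-mEGFP_spheroid (adjusted p = 0.00195) and differed by -0.88 ± 0.24 in SOX9-Halo_spheroid. Of 15 other known PPARA targets, 10 were lower and 0 higher in each line, with medians of -1.73 and -1.80. Fabp1, an intracellular fatty acid carrier that is also one of the enterocyte markers, fell (-6.19 ± 0.85 and -11.14 ± 1.05, adjusted p = 3.79e-05 and 5.99e-07), while Ucp2 and Txnip were called in neither. Fabp2 of this list is an enterocyte marker as well, and Mgll is also in the lipid droplet list. Fabp2 and Mgll were called lower in each line. The pyruvate dehydrogenase list had 1 lower and 1 higher of 12 in each line, with medians of -0.22 and 0.057, and Pdha1, Pdhb and Pdk1 were not called. The lipase list had 1 lower of 4 in each line, Lipg, which fell (-2.51 ± 0.25 and -1.15 ± 0.24, adjusted p = 1.86e-06 and 0.00107), with medians of 0.068 and -0.54, and Angptl8 and Lmf1 were not called. The other genes called higher in these lists, named after their values were seen, were Acox2 and Slc16a6 in SOX9-mEGFP_spheroid, Abhd5 in SOX9-Halo_spheroid, and Cidea and Pdp1 in both.

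**Figure D5:**
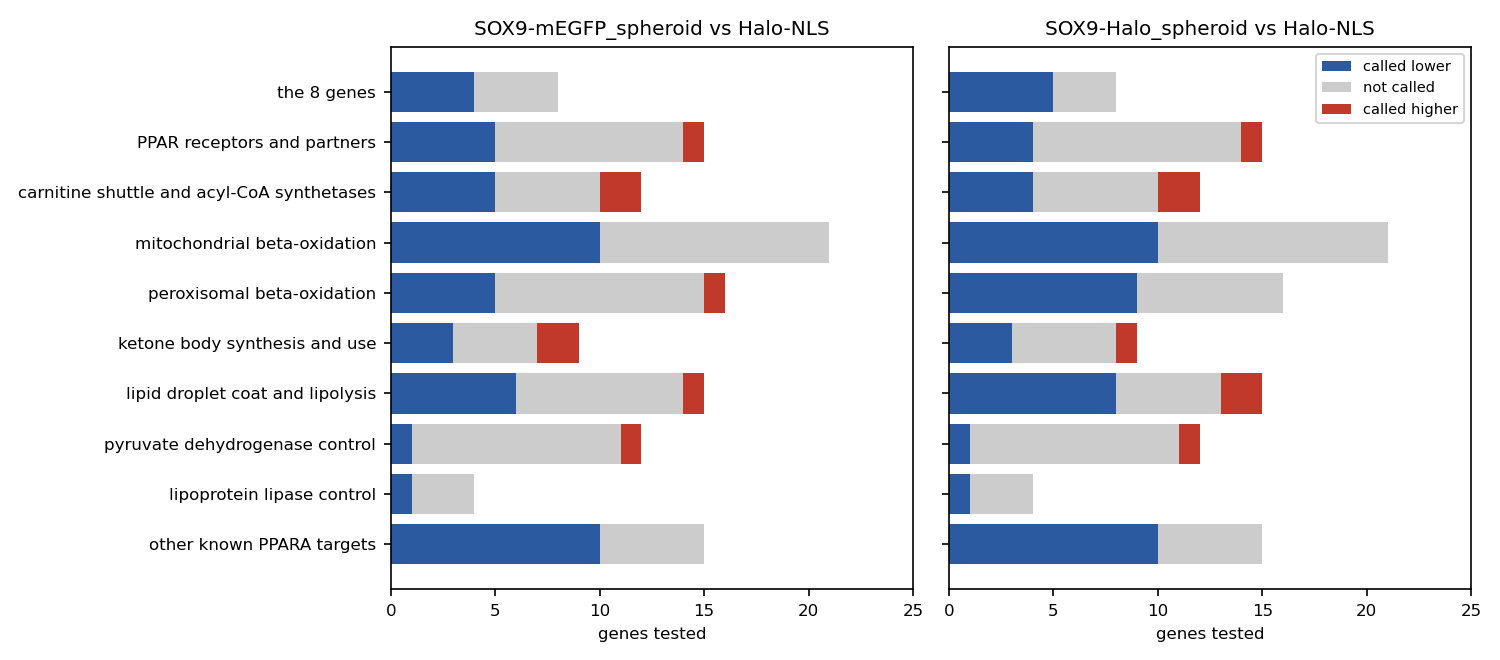
Number of genes tested (x axis) in each list (y axis) that were called lower, not called or called higher against Halo-NLS, in SOX9-mEGFP_spheroid (left) and SOX9-Halo_spheroid (right). Mitochondrial beta-oxidation has 10 of 21 lower in both, peroxisomal beta-oxidation 5 and then 9 of 16, and pyruvate dehydrogenase control 1 of 12 in both. Over all genes tested, 12.1% (left) and 15.3% (right) were called lower.

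The genes whose log2 CPM profile over the 15 libraries lay nearest to each member are given as a description. The distance is the root mean square difference of the centred profiles. Angptl4 was nearest to Vil1, an actin bundler of the brush border (0.25), and Ehhadh to Galm (0.23) and Aqp11 (0.24). Cpt1a was nearest to Dnmbp (0.18), and to Stmp1 (0.20). Cpt2 lay nearest to Cda and Kctd2 (both 0.15), Acadm to Pls1 and Gng12 (both 0.18), Plin2 to Plekhf1 (0.30) and Lzic (0.31), and Ppara to Cyp2j6 (0.44) and Pbld2 (0.47). Dnmbp shares chromosome 19 with Cpt1a, and Cda and Lzic share chromosome 4 with Cpt2 and Plin2. Pdk4, with its low counts, had the largest distances, 0.49 to AW112010 and 0.53 to Cyp2d10. Among the 8 themselves, the closest pair was Cpt1a and Plin2 (0.35), the pair that was lower in SOX9-mEGFP_spheroid and not called in SOX9-Halo_spheroid.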

How the data were processed

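Poly-A RNA-seq count files of 15 libraries, 3 for each of 5 conditions, were used. The deposited values are raw counts per gene, which the authors made by trimming with cutadapt 4.5, aligning to GRCm39 with STAR and counting with HTSeq 2.0.2 in union mode without strand, per the submitters' processing notes and the study's methods. Reads that HTSeq assigned to no gene (1.83% to 6.10% of a library) or to several (9.65% to 13.6%) were left out here. The authors' comparison tables, which hold their fold changes and p-values, were not used.

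Counts were filtered with filterByExpr, scaled by TMM and fitted over all 15 libraries with edgeR 4.0.16 (quasi-likelihood) in R 4.3.3, with Benjamini-Hochberg adjustment over the 17560 genes tested. The standard error is the log2 fold change divided by the root of F. Libraries of a condition differed by more than sampling noise, so none was counted as a copy of another. P-values measure the spread between these cultures. The scripts were tested on simulated data.

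The 8 genes and the pathway and marker lists were chosen with earlier results of these data known. Of each pathway list, the 3 genes with the highest mean level per length over the 15 libraries are named, and Ppard, Pparg, Ppargc1a and Hnf4a by name; for each of the 8, the 2 genes with the nearest profile (mean normalized count of at least 10). Some genes that this rule names are not reported here. Alternatives were DESeq2 1.42.0, RLE size factors, library sizes alone, no count filter, other thresholds, only the libraries compared, a replicate block and leaving out each library. Same-numbered libraries of SOX9-Halo_spheroid and SOX9-Halo_budding deviated together (correlations 0.38, 0.22 and 0.33 over 12098 genes), so the numbers were taken to pair these 2 conditions; they did not pair the others by this measure.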

Additional observations from a re-analysis of the deposited data

Results flagged for a closer look

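The results below differed between the lines in the change from budding to spheroid, by the test of that difference (SOX9-Halo minus SOX9-mEGFP, log2, edgeR quasi-likelihood with adjustment over all genes tested). Of the 8 genes these were Ppara (-3.25, adjusted p = 0.00619), Angptl4 (-3.29, adjusted p = 4.77e-05) and Cpt1a (1.27, adjusted p = 0.00880). Of the named genes of the other lists they were the nuclear receptor Hnf4a (-3.41 ± 0.34, adjusted p = 9.67e-06), the fatty acid carrier Fabp1 (-5.23 ± 1.04, adjusted p = 0.00310), Creb3l3 (-7.34, adjusted p = 2.58e-05) and Hnf4g (-8.77, adjusted p = 1.94e-04). The Creb3l3 and Hnf4g values are fitted to at most 11 and 2 counts a library in SOX9-Halo_spheroid and depend on the prior count of the model. The genes of chromosome 19 had a median of 0.88 in the same difference, and the part of the chromosome in the Cpt1a value was not tested. The enterocyte markers, of which Fabp1 is one, summed to 4.76 to 14.3 CPM in SOX9-Halo_spheroid and 400.3 to 1133 in SOX9-mEGFP_spheroid, and their part in the other values was not tested.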

How the results depend on the processing

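The count of the 8 genes called moved with the fold limit and, for the difference between the lines, with several settings. At a log2 fold change of at least 2 it was 0 in SOX9-mEGFP_spheroid against Halo-NLS, 1 against SOX9-mEGFP_budding and 3 between the spheroid lines, where 1542 and 1087, 979 and 955, and 320 and 1229 of all genes were called higher and lower. For the line difference it was 5 without a low-count filter, 6 at an adjusted p of at most 0.05, 5 with a replicate block and 5 with that block and only the libraries compared. The genes called higher and lower over all genes went from 318 and 979 to 471 and 1410 (of 52932 tested), 584 and 1474, 381 and 1111, and 433 and 1169 in these settings. Leaving out 1 library at a time gave 3 to 5 in SOX9-mEGFP_spheroid and 5 to 5 in SOX9-Halo_spheroid against Halo-NLS. Over all genes these fits called 2087 to 3522 higher and 1705 to 2288 lower, and 1968 to 3146 and 2407 to 2720. Against the budding lines it gave 2 to 5 (1134 to 1362 and 1006 to 1470 over all genes) and 4 to 5 (1572 to 1849 and 2258 to 2424). Between the spheroid lines it gave 4 to 4 (408 to 566 and 1244 to 1554). For the line difference it gave 1 to 3 (180 to 336 and 719 to 919). In the 3 comparisons among budding lines and Halo-NLS it gave 0 to 0 (36 to 1986 and 8 to 384). The replicate block, over all libraries, gave 5 and 5 against Halo-NLS, where 2951 and 2196, and 2570 and 2739, of all genes were called higher and lower. Against the budding lines it gave 4 and 5 (1627 and 1475, and 1972 and 2669) and between the spheroid lines 5 (712 and 1837). The numbers pair the libraries only between SOX9-Halo_spheroid and SOX9-Halo_budding. Where a lone omission leaves 2 libraries, the spread is still pooled over all conditions.

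Among single values, 1014 kept direction and side of the threshold, 49 lost and 29 gained the call, and 32 changed sign, all of them small and not called. With library sizes alone the sign changed for Cpt1a (0.12) and Ehhadh (0.086) in SOX9-mEGFP_budding, Acadm in SOX9-mEGFP_spheroid (0.22), Plin2 in SOX9-Halo_spheroid (0.24) and Angptl4 between the budding lines (0.059). This scaling moved the median of all genes against Halo-NLS to 0.27, 0.31, 0.29 and 0.28, and the genes called higher and lower from 2690 and 2133 to 3333 and 1500 in SOX9-mEGFP_spheroid and from 2392 and 2682 to 3102 and 2229 in SOX9-Halo_spheroid. Without a low-count filter it changed for Acadm in SOX9-mEGFP_spheroid (0.0050) and Plin2 in SOX9-Halo_spheroid (0.023). With the replicate block, over all or only the libraries compared, it changed for Acadm in SOX9-mEGFP_spheroid (0.052 and 0.022) and Angptl4 between the budding lines (0.00365 and 0.019), the latter also with only the libraries compared and no block (0.0091). With 1 library left out, values that crossed 0 against Halo-NLS ran from -0.24 to 0.14 for Cpt1a and -0.39 to 0.14 for Ehhadh in SOX9-mEGFP_budding, -0.18 to 0.33 for Ehhadh in SOX9-Halo_budding, -0.32 to 0.44 for Acadm and -0.023 to 0.74 for Pdk4 in SOX9-mEGFP_spheroid, and -0.27 to 0.062 for Plin2 in SOX9-Halo_spheroid. From SOX9-mEGFP_budding to its spheroid Angptl4 ran from -0.40 to 0.022. Between the budding lines Cpt2 ran from -0.40 to 0.13, Acadm from -0.36 to 0.068, Ehhadh from -0.079 to 0.43 and Angptl4 from -0.24 to 0.17, and in the line difference Cpt2 ran from -0.37 to 0.20. The cause was not tested.

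Over all genes, calls in the budding lines moved most. In SOX9-mEGFP_budding against Halo-NLS, 350 genes higher and 134 lower became 65 and 38 with only the libraries compared, 940 and 294 by DESeq2 and 1839 and 345 without Halo-NLS replicate 1. In SOX9-Halo_budding, 438 and 221 became 5 and 0, 1200 and 461, and 1986 and 384. Between the budding lines, 51 and 29 became 17 and 2 with only the libraries compared and 105 and 112 by DESeq2. In SOX9-Halo_spheroid, Pdk4 rests on 1 count in all and Ppara on 13 to 30 counts a library, which limits the precision of their folds.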

Other observations

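Few genes of these lists were called in the budding lines, where 0 of the 8 were, and all of them rose. In SOX9-mEGFP_budding they were 1 of 15 PPAR receptors and partners, 1 of 9 ketone body genes and 1 of 15 lipid droplet genes. In SOX9-Halo_budding they were 1 of 15, 0 of 9 and 1 of 15, and 1 of 12 in the pyruvate dehydrogenase list. The other lists had 0. Over all genes, 2.76% and 3.75% were called, so these calls are not read as a trait of the lists. Ppargc1a, the coactivator of oxidative genes, rose by 3.86 ± 0.36 (log2) in SOX9-mEGFP_budding and 3.31 ± 0.35 in SOX9-Halo_budding against Halo-NLS. Cidea, a lipid droplet protein, rose by 4.36 ± 0.70 and 4.48 ± 0.70, from a low level (0.172 CPM in Halo-NLS, 3.61 and 3.91 CPM in the budding lines). Oxct1, the ketone body user, rose by 1.64 ± 0.31 in SOX9-mEGFP_budding (adjusted p = 0.00511) and had 1.03 ± 0.31 in SOX9-Halo_budding (adjusted p = 0.0318). Pdpr, a regulatory subunit of pyruvate dehydrogenase phosphatase, rose by 1.89 ± 0.40 in SOX9-Halo_budding (adjusted p = 0.00896) and had 1.65 ± 0.40 in SOX9-mEGFP_budding (adjusted p = 0.0191). Cidea, Oxct1 and Pdpr are named here after their values were seen.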
